A study of Sus scrofa with 79 samples.

Results

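Whole blood and small intestine of piglets were compared at day 8 after birth. All 35 day 8 arrays of blood, jejunum and ileum were taken out of the 79 arrays of the series by their labels alone, which gave 12 arrays of blood and 23 of intestine, namely 12 of jejunum and 11 of ileum. Every array was a 1-colour Agilent pig array with RNA of a pool of 4 suckling piglets of 1 treatment, and pools with the same number held the same piglets in blood, jejunum and ileum. T1 piglets were left undisturbed, T2 piglets were injected under the skin with 0.1 ml of the antibiotic tulathromycin (2.5 mg/kg) at day 4, and T3 piglets received this injection together with docking, clipping and weighing. Piglets of each sow were divided over the treatments, and 1 set of 4 sows gave pools 1, 5 and 9, another pools 2, 6 and 10, another pools 3, 7 and 11, and the last pools 4, 8 and 12. Pools 1 to 4 were T3, pools 5 to 8 T2 and pools 9 to 12 T1. Each tissue and treatment had 4 pools, except ileum T2 with 3, since its pool 8 was not analysed here. Jejunum T2 pool 8 stood apart from the other jejunum arrays in several gene lists and is taken to be the array that the authors set aside at quality control. It was kept, and 23887 genes were called between blood and intestine without it, against 23903 with it. Blood RNA came from PAXgene tubes and intestinal RNA from frozen tissue homogenized in TRIzol. No day 8 slide held both blood and intestine, so that tissue, slide and RNA isolation cannot be told apart on the day 8 arrays. In whole blood and in tissue, fewer cells of a type and less RNA per cell cannot be told apart either.

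Whole blood holds red cells, platelets and white cells. Red cells carry oxygen on haemoglobin, platelets are fragments of megakaryocytes that close wounds, and neutrophils, monocytes and lymphocytes defend against microbes. The wall of the small intestine is lined by enterocytes, which break down and take up nutrients through the brush border and export fat as lipoproteins, with mucus-forming goblet cells and hormone cells between them. Below this lining lie connective tissue, vessels, nerves, smooth muscle and many immune cells, so that genes of immune cells are found in both tissues.

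Fewer genes were detected in blood than in intestine. A spot was taken as detected when the scanner software marked it as well above background. This held for 34.8% to 44.1% of the spots on a blood array, for 64.8% to 75.2% on a jejunum array and for 59.0% to 72.6% on an ileum array, so that blood and intestine did not overlap. Blood was lower than the intestine of the same pool in 12 of 12 pools, by 30.6 percentage points on average (SD 3.04, n = 12), with p = 0.000488 in a two-sided exact permutation test, the smallest p that 12 pairs allow. Signals were lower as well, with a 75th percentile of the intensity between 30.7 and 53.7 in blood and between 387 and 1282 in intestine. The brightest spots were closer, since the 99th percentile was 21226 to 34401 in blood and 63294 to 120752 in intestine. The 100 brightest spots took 39.2% to 45.4% of the summed signal of a blood array, against 12.5% to 19.7% on an intestine array.

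**Figure D1:**
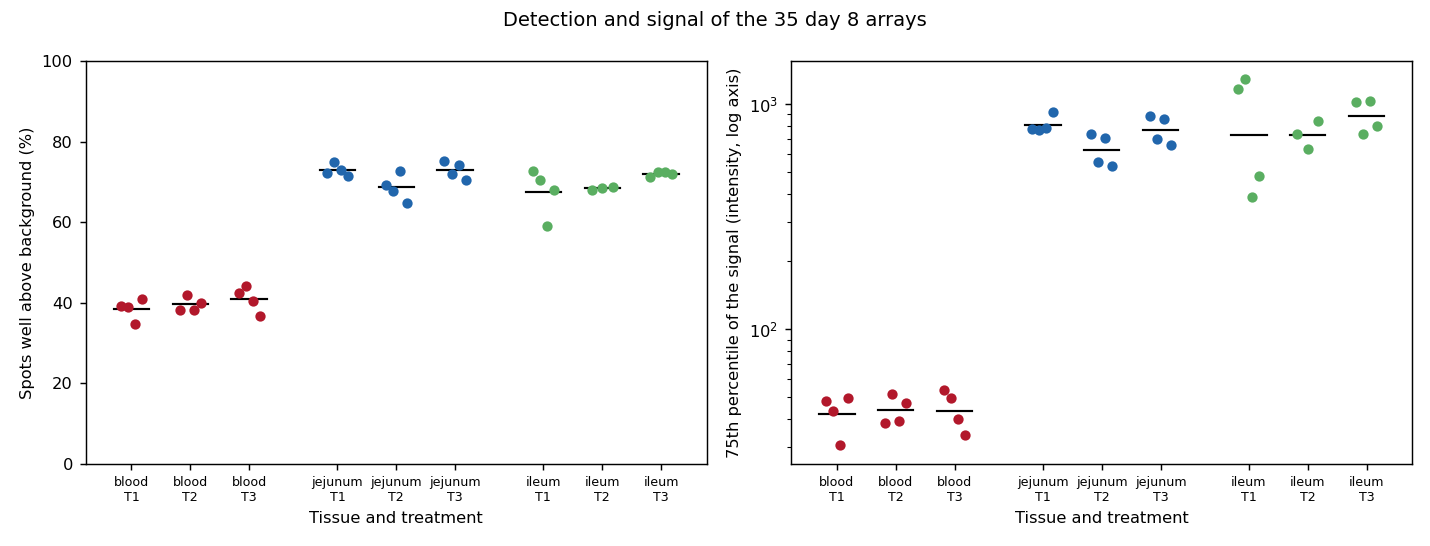
The left plot gives the share of spots well above background in percent and the right plot the 75th percentile of the intensity on a log axis, for each of the 35 arrays (1 point an array) by tissue and treatment, with the group mean (left) or geometric mean (right) as a line. All 12 blood arrays lie at or below 44.1% and 53.7, and all 23 intestine arrays at or above 59.0% and 387.

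Of the 36787 genes and other transcript names on the array, of which 2389 had a gene symbol, 9120 (24.8%) were detected on all 35 arrays and 5909 (16.1%) on none. In the intestine 4259 names (11.6%) were detected on all 23 arrays and on no blood array, 278 of them with a symbol. The reverse held for 29 names (0.0788%), 2 of them with a symbol. These were RHCE, a Rh blood group protein of the red cell membrane, and PAGE2B, a gene of the PAGE family, of which RHCE also belonged to the genes named by size below. PAGE2B, chosen after its values were seen, had ranks of 75.9 to 88.7 (median 85.7) in blood and 0.0795 to 19.5 (median 9.69) in intestine, at least 191-fold higher in blood (adjusted p = 7.97e-29, limma). When a gene was instead counted as detected among the brightest 33.3% of each array, 1196 names (3.25%) held this place on all 12 blood arrays and no intestine array, and 1114 names (3.03%) on all 23 intestine arrays and no blood array. Under that rule the genes with a symbol numbered 98 (4.1% of 2389) for blood and 143 (5.99%) for intestine. The 98 included 2 of the 3 red cell, 2 of the 8 platelet and 2 of the 16 neutrophil genes listed. They also held 2 of 14 T cell, 2 of 11 chemokine receptor, 1 of 12 monocyte and 1 of 7 cytotoxic genes. Genes outside the lists, such as LALBA, LHB and CRP, were among them too. The 143 included 5 of the 10 brush border, 6 of the 15 lipid absorption and 6 of the 11 goblet and hormone cell genes. They also held 3 of 12 epithelial, 3 of 8 matrix, 1 of 5 endothelial and 4 of 22 chemokine genes.

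Since signals were far lower in blood, genes were compared by their place within an array. The percentile rank of a gene runs from 0 for the dimmest to 100 for the brightest probe of an array, and log2 differences were taken after quantile normalization, which keeps only that order. The order of probes was closely shared within the intestine and less so between tissues. Spearman's rank correlation of 2 arrays over all probes, given as a description, had a median of 0.977 within jejunum (66 pairs), 0.970 within ileum (55 pairs) and 0.970 between jejunum and ileum (132 pairs). It was 0.871 within blood (66 pairs, 0.782 to 0.916), 0.695 between blood and jejunum (144 pairs) and 0.696 between blood and ileum (132 pairs). Values of blood pools also varied more than those of gut pools, with a median SD of log2 values within groups of 0.801 in blood, 0.306 in jejunum and 0.416 in ileum. Fewer spots were well above background in blood, and how far dim signals enter this SD was not tested.

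A gene was called different at an adjusted p below 0.05 (limma, Benjamini-Hochberg) and a change above 1.5-fold. Of 31492 genes tested, 12565 (39.9%) were higher in blood than in intestine and 11338 (36%) were lower, with a median difference over all genes of 0.09 (log2). Above 4-fold 5091 (16.2%) were higher and 5232 (16.6%) lower. Against jejunum alone 12461 (39.6%) were higher and 11203 (35.6%) lower, and against ileum alone 12169 (38.6%) and 10995 (34.9%). The lowest blood array lay above the highest intestine array for 4875 genes (15.5%), and the highest blood array below the lowest intestine array for 4498 (14.3%). The balance depends on the scaling and on the probe filter. When arrays were aligned on their 75th percentile without quantile normalization, the median difference of all genes was 1.19 (log2). Of the calls 71.7% were then higher in blood, against 52.6% here, and 1872 genes were called the opposite way. With only probes well above background on every array of at least 1 tissue, 33.3% of 22017 genes were higher in blood and 46.2% lower. Without a filter on low values, 42.4% of 36662 genes were higher and 30.9% lower.

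Many of these calls rest on dim signals. Of the 12565 genes called higher in blood, 5320 (42.3%) were detected on all 12 blood arrays and 3993 (31.8%) on none of them, and 2198 were not detected on any of the 35 arrays. Of the 11338 genes called lower in blood, 8569 (75.6%) were detected on all 23 intestine arrays and 6450 (56.9%) on no blood array. Hence the text below gives the number of arrays with detection beside a part of the genes. Differences of other genes may rest on dim signals as well. Where a gene was not well above background on any array of a tissue (blood, or intestine for RHCE and PAGE2B), only a bound can be given, written as at least N-fold, for which its values there were replaced by the dimmest signal still well above background on the same array wherever they lay under it. The bounds below belong to called genes with an adjusted p of at most 9.58e-13 in limma, that of CXCR6. All bounds are on quantile normalized values and were not computed under another scaling, where they may be smaller or larger. Within the treatments, 20575 genes were called in T1, 22003 in T2 and 20479 in T3, and 15739 (50% of those tested) were called in the same direction in all 3. Among genes with a symbol, 802 of 2285 (35.1%) were higher in blood and 1045 (45.7%) lower. Where several probes measured a called gene with a symbol, all of them pointed the same way in 861 of 994 genes (86.6%).

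The genes with a symbol that were furthest above the intestine in blood, with no overlap of arrays, were HBE1, RHCE, SNCG, ARG1, TNNI1, ATP4B, PPBP, UPK2, LGALS7, OPALIN, ADRB1 and COX8H. All 12 were detected on all 12 blood arrays, and their adjusted p in limma lay between 1.72e-33 and 3.77e-28. HBE1, a beta-like globin, had ranks of 98.3 to 99.2 (median 98.9) in blood and 20.97 to 40.9 (median 30.9) in intestine. Its median scanner signal was 22703 in blood, 14.4 in jejunum and 11.95 in ileum, and its log2 difference was 12.68 (SE 0.15). Every blood array lay far above every gut array. Beta-like globins are nearly identical in sequence, so which of them this probe measured is uncertain. RHCE had ranks of 95.2 to 98.5 (median 97.9) in blood and 1.96 to 29.3 (median 22.8) in intestine, where it was detected on no array, at least 4029-fold apart. ARG1, the arginase that splits arginine, had ranks of 99.1 to 99.3 (median 99.2) in blood and 38.5 to 63.0 (median 44.2) in intestine, with a log2 difference of 11.83 (SE 0.18) and the same direction for all 4 probes. PPBP, a chemokine stored in platelets, had ranks of 92.4 to 94.8 (median 93.7) in blood and 5.26 to 33.9 (median 21.1) in intestine, a log2 difference of 10.15 (SE 0.16). It was detected on 1 of 23 intestine arrays.

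The other 8 of these genes are better known from other tissues. SNCG encodes a synuclein, and its rank was 99.0 to 99.3 (median 99.2) in blood against a median of 41.5 in intestine, a log2 difference of 12.20 (SE 0.18). TNNI1, the troponin I of slow muscle, differed by 11.19 (SE 0.16), and ATP4B, a subunit of the acid pump of the stomach, by 11.10 (SE 0.14). UPK2, a uroplakin of the bladder lining, differed by 10.13 (SE 0.19), and LGALS7, a galectin of stratified epithelium, by 9.97 (SE 0.19). OPALIN, a protein of myelin-forming cells, differed by 9.60 (SE 0.18), and ADRB1, the beta-1 adrenergic receptor, by 9.41 (SE 0.16). COX8H, a muscle form of a cytochrome c oxidase subunit, had the lowest rank of the 12 in blood with a median of 87.0, against 10.67 in intestine, and differed by 9.13 (SE 0.13). All these differences are log2 values of blood minus intestine. Of the 23 intestine arrays, COX8H was detected on 1, UPK2 on 7 and LGALS7 on 9. Probe sequences were not analysed here, so whether these probes bind other transcripts was not tested.

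The genes furthest below the intestine in blood were RBP2, APOA1, AQP10, APOC3, FCN2, REG4, LGALS2, CFB, APOA4, FABP2, FABP1 and MTTP. All 12 were detected on all 23 intestine arrays, and their adjusted p in limma lay between 1.58e-35 and 2.13e-24. Of 12 blood arrays, RBP2 and FCN2 were detected on 1, and APOA1, APOC3, FABP1 and MTTP on 3. AQP10 was detected on 9 and APOA4 on 12 of them. Where detection in blood was rare, the size of the difference rests on signals near background. Of these 12 genes, 7 carry or export lipids or lipid-like molecules. RBP2, which carries retinol in enterocytes, had ranks of 0.393 to 58.6 (median 23.6) in blood and 99.4 to 99.9 (median 99.7) in intestine, a log2 difference of −14.77 (SE 0.39). APOA1, a main protein of high-density lipoprotein, had a median scanner signal of 5.53 in blood, 437212 in jejunum and 456053 in ileum, and stood at the very top of each intestine array. Its blood ranks were 20.4 to 66.5 (median 47.7), and its log2 difference was −14.06 (SE 0.32). APOC3 differed by −13.53 (SE 0.19) and APOA4 by −12.54 (SE 0.21) on the same scale, both apolipoproteins of the particles that carry fat. FABP1, a fatty acid-binding protein, differed by −12.16 (SE 0.30), and MTTP, which loads lipid onto apolipoprotein B, by −11.49 (SE 0.30). FABP2, the intestinal fatty acid-binding protein, was detected on no blood array and was at least 896-fold lower there.

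Of the remaining genes, REG4, a secreted lectin of the gut, was at least 607-fold lower in blood, LGALS2, a galectin, at least 1214-fold, and CFB, complement factor B, at least 839.8-fold. None of these was detected on a blood array. AQP10, a water and glycerol channel, had ranks of 7.71 to 47.5 (median 25.2) in blood and 98.8 to 99.5 (median 99.2) in intestine, a log2 difference of −13.85 (SE 0.28). FCN2, a ficolin of the lectin pathway of complement, differed by −13.31 (SE 0.36). Its ranks in intestine were 75.9 to 99.6 (median 99.2), and the lowest of them was that of jejunum T2 pool 8. The 6 genes with a symbol and the highest mean rank over all 35 arrays that differed by less than 1.5-fold were FTH1, RPS28, RPL35, RPS3, SPINK4 and RPL32. FTH1, the heavy chain of the iron store ferritin, had a median rank of 99.9 in both tissues, with a log2 difference of 0.07 (SE 0.06) here and 4.01 after alignment on the 75th percentile. SPINK4, known as a peptide of goblet cells, had ranks of 99.3 to 99.6 (median 99.4) in blood and 99.3 to 99.8 (median 99.5) in intestine. Its log2 difference was −0.20 (SE 0.12) here, 2.87 after alignment on the 75th percentile, and 1.59 on the 1 slide that held blood and day 55 jejunum.

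**Figure D2:**
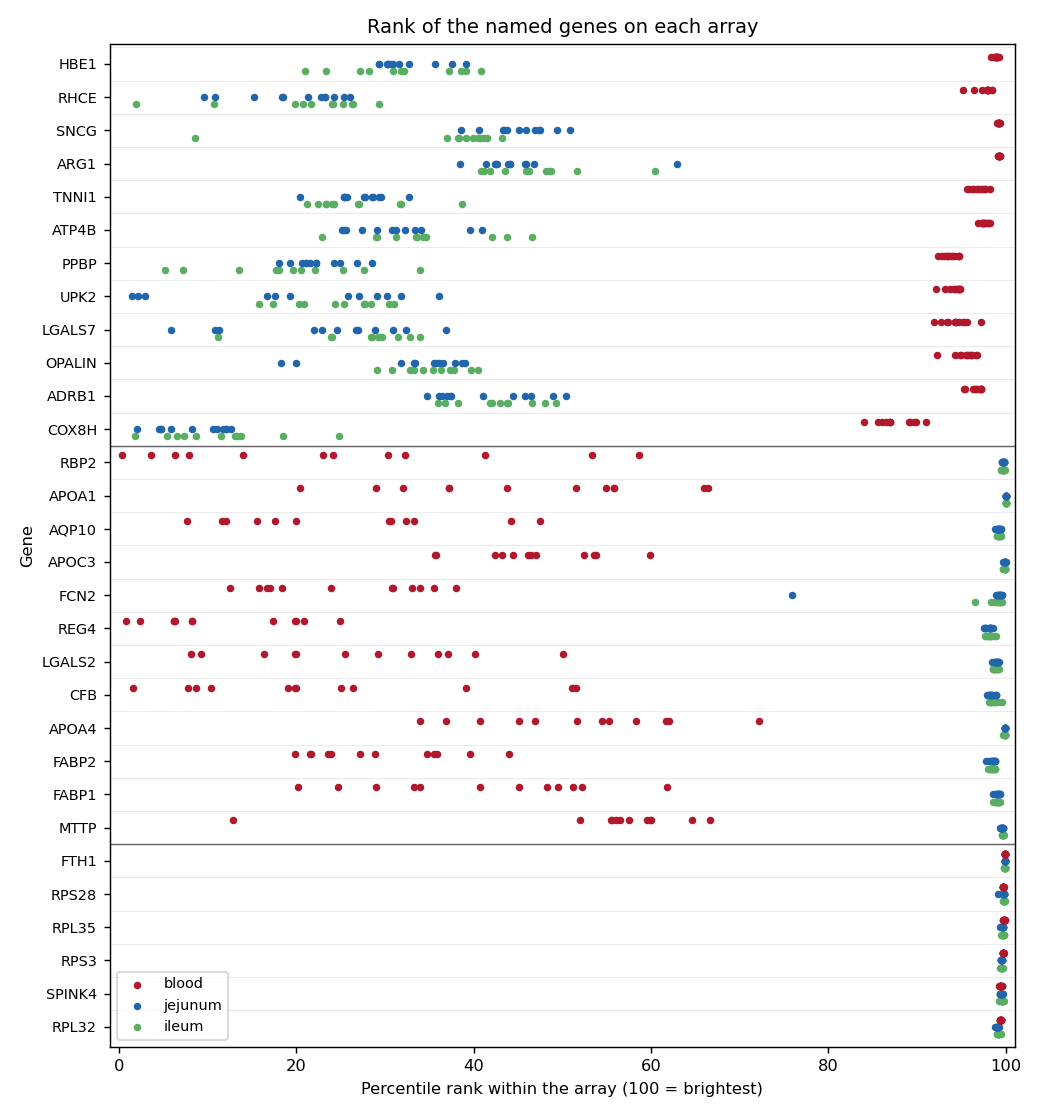
Percentile rank within the array (x axis, 100 is the brightest) of the 30 named genes on each of 12 blood, 12 jejunum and 11 ileum arrays, 1 point an array. The upper 12 genes were higher in blood, the middle 12 lower, and the lower 6 were near the top of every array, with log2 differences under 1.5-fold by quantile normalized values but 2.87 to 4.07 after alignment on the 75th percentile.

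The slides could be kept apart from the tissue in only 1 way. The 4 blood T1 arrays shared a slide with 4 jejunum T3 arrays of day 55, and these 8 arrays were fitted alone. In that fit age and treatment differ along with the tissue. The 24 genes named above as higher or lower in blood had the same call and direction in 24 of 24 cases. The 4 blood arrays had also served to choose these genes, so this is no independent check. Among all genes called both here and between day 8 blood and jejunum, 15040 had the same direction and 145 the opposite. HBE1 differed by 12.50 (log2, SE 0.30) within this slide and by 12.68 over the day 8 arrays. The size changed most for AQP10, with −6.13 (log2, SE 0.50) within the slide and −13.85 over the day 8 arrays, followed by APOC3, with −12.13 (SE 0.57) and −13.53.

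Genes were further described by lists of markers and pathways, of which only members with a gene symbol on the array could be followed. Over all tested genes with a symbol 35.1% were higher in blood and 45.7% lower, with a median log2 difference of −0.35, beside which the counts of each list may be read. Counts within the shared slide have another background. Of all 26109 genes tested in that fit, with or without a symbol, 31.8% were higher in blood and 32.7% lower. Genes of blood cells were mostly higher in blood. Of the red cell genes 3 of 3 tested were higher, out of 32 listed, with a median log2 difference of 7.49. Beside HBE1 these were KLF1, a transcription factor of red cell precursors, with ranks of 78.9 to 87.3 (median 83.0) in blood and 15.6 to 35.3 (median 26.8) in intestine, and TFRC, the transferrin receptor, which differed by 3.07 (log2, SE 0.20).

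All 8 platelet genes were higher in blood, with a median log2 difference of 4.38, although 1 of them was detected on no blood array. GP1BB, part of the platelet receptor for von Willebrand factor, had ranks of 96.0 to 97.5 (median 96.8) in blood and 45.4 to 56.8 (median 52.6) in intestine, a log2 difference of 8.30 (SE 0.12). ITGA2B, a chain of the fibrinogen receptor, differed by 5.26 (SE 0.11) and TUBB1, a tubulin of platelets, by 4.52 (SE 0.15) on the same scale. The mean rank of the platelet genes was 84.2 to 90.4 on the blood arrays, 57.0 to 60.998 on the jejunum arrays and 55.4 to 62.4 on the ileum arrays, with no overlap of blood and gut.

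Of 16 neutrophil genes 15 were higher in blood and 1 lower, with a median log2 difference of 5.37. The calgranulins S100A8, S100A9 and S100A12, which neutrophils release in inflammation, led the list. S100A9 had ranks of 94.5 to 96.9 (median 96.0) in blood and 33.8 to 69.9 (median 43.1) in intestine, a log2 difference of 8.58 (SE 0.30). S100A8 differed by 8.53 (SE 0.29), S100A12 by 8.38 (SE 0.29) and PGLYRP1, a protein that binds bacterial cell walls, by 7.03 (SE 0.37), all on the log2 scale. CYBA, a subunit of the NADPH oxidase that forms reactive oxygen, was lower in blood by quantile normalized values (−1.01, log2, SE 0.15) and at 0.25 after alignment on the 75th percentile. It ranked high in both tissues, with medians of 97.7 and 98.5.

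Of 12 monocyte and macrophage genes 10 were higher and 2 lower, with a median log2 difference of 2.00. FCN1, a ficolin of monocytes, had ranks of 92.6 to 95.5 (median 93.9) in blood and 41.8 to 69.4 (median 57.2) in intestine, and differed by 6.23 (log2, SE 0.21). CD14, a co-receptor for bacterial lipopolysaccharide, differed by 4.79 (SE 0.23), FCER1G, a signalling chain of Fc receptors, by 3.48 (SE 0.25), and CCR2, the receptor that draws monocytes to tissue, by 3.47 (SE 0.13). Against this direction went LYZ, the lysozyme that also Paneth cells and macrophages make, with −1.18 (log2, SE 0.23, and −0.57 and not called after alignment on the 75th percentile), and AIF1, a macrophage protein, with −0.93 (log2, SE 0.11). Within the slide shared with day 55 jejunum 5 of the list were higher and 2 lower. Within that slide FCER1G was not called (1.30). All 4 genes of white cells in general were higher, although 1 of them was detected on no blood array, and 2 were higher within the shared slide. Of these, ITGB2, an adhesion chain of leukocytes, differed by 2.51 (log2, SE 0.39).

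All 14 T cell genes were higher in blood, with a median log2 difference of 3.20, although 1 of them was detected on no blood array. CCR7, the receptor that guides naive T cells to lymph nodes, had ranks of 92.7 to 95.2 (median 94.7) in blood and 42.8 to 75.1 (median 59.5) in intestine, and differed by 6.39 (log2, SE 0.33). IL7R, the receptor for interleukin 7, differed by 3.72 (SE 0.12), CD247, a chain of the T cell receptor complex, by 3.57 (SE 0.17), and LCK, its kinase, by 3.56 (SE 0.15). Within the shared slide, against day 55 jejunum, 7 of the list were higher and 1 lower. Cytotoxic genes went both ways, with 4 of 7 higher and 2 lower. SH2D1A, an adaptor of T and NK cells, differed by 4.86 (log2, SE 0.20) and GZMH, a granzyme, by 3.43 (log2, SE 0.28), whereas the granzymes GZMA, with −3.28 (log2, SE 0.32), and GZMB, with −1.08 (log2, SE 0.19), were higher in intestine. Within the shared slide 1 gene of the list was higher and 3 were lower, and GZMH was not called (0.45). GZMA was detected on all 23 intestine arrays and on 6 of 12 blood arrays. Of 3 B and plasma cell genes 2 were higher in blood and 1 lower, but 1 and 1 with arrays weighted by the spread of their tissue and within the shared slide. CD79A, a signalling chain of the B cell receptor, was higher in blood by 2.77 (log2, SE 0.67), with wide and overlapping ranks, and by −2.06 within the shared slide, where it was not called. In contrast, XBP1, a transcription factor of secreting cells, was lower, with a log2 difference of −1.93 (SE 0.14).

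Genes of the intestinal lining were mostly lower in blood. All 12 epithelial genes were lower, with a median log2 difference of −6.95, and 3 of them were detected on no blood array. KRT8, a keratin, had ranks of 30.5 to 58.9 (median 43.7) in blood and 93.4 to 98.9 (median 98.1) in intestine, and differed by −10.91 (log2, SE 0.21). MUC13, a mucin of the cell surface, differed by −10.58 (SE 0.18) and LGALS4, a galectin of the gut, by −10.35 (SE 0.17). CLDN7, a claudin of tight junctions, was at least 762-fold lower. The mean rank of the list was 42.1 to 49.6 on blood arrays and 87.7 to 90.2 and 83.7 to 89.6 on jejunum and ileum arrays.

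All 10 brush border genes were lower in blood, with a median log2 difference of −8.14. SLC7A9, a transporter of cystine and basic amino acids, was at least 157-fold lower. ENPEP and ANPEP, peptidases of the brush border, differed by −9.77 (SE 0.33) and −9.50 (SE 0.28), and SLC5A1, the sodium and glucose carrier, by −8.74 (SE 0.16) on the log2 scale. SLC5A1 had ranks of 22.7 to 35.9 (median 31.8) in blood and 89.9 to 94.2 (median 91.2) in intestine. Of 15 lipid absorption genes 11 were lower and 1 higher, with a median log2 difference of −9.49. The higher one was SAR1B, a GTPase that lets lipoprotein particles leave the endoplasmic reticulum, by 0.70 (log2, SE 0.08), and not called within the shared slide (0.24), with ranks of 93.9 to 95.1 (median 94.5) in blood and 91.5 to 93.9 (median 92.6) in intestine.

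Of 11 genes of goblet and gut hormone cells 9 were lower in blood, with a median log2 difference of −9.08, and 8 of the 11 were detected on no blood array. Beside REG4 these included CLCA1, a protein of goblet cell mucus, at least 254-fold lower, and the hormones SST (somatostatin), at least 257-fold, and GCG (the precursor of glucagon and the glucagon-like peptides), at least 108-fold. SST had ranks of 94.5 to 97.3 (median 96.9) in intestine. The other two of the list were SPINK4 and MLN, the hormone motilin, which had ranks of 31.7 to 58.5 (median 49.1) in blood and 39.7 to 70.1 (median 47.4) in intestine and a log2 difference of −0.22 (SE 0.32) here and 0.47 after alignment on the 75th percentile.

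Genes of muscle, matrix and vessels were mostly lower in blood. Of 6 smooth muscle genes 5 were lower and 1 higher, of 8 matrix genes 5 were lower and 2 higher, and of 5 endothelial genes 4 were lower. CNN1, calponin of smooth muscle, differed by −5.61 (log2, SE 0.26) and DES, desmin, by −3.93 (SE 0.28). SPARC and DCN, matrix proteins, differed by −6.63 (SE 0.21) and −6.11 (SE 0.25), and MMP2, which cuts collagen, was at least 73.0-fold lower. CDH5 and CLDN5, junction proteins of endothelium, were at least 3.41-fold and 10.3-fold lower. The other way went TPM1, a tropomyosin also found outside muscle, by 0.89 (SE 0.14), TIMP2, an inhibitor of matrix enzymes, by 1.42 (SE 0.12), and THY1, a surface protein of fibroblasts and some lymphocytes, by 1.39 (SE 0.33), which was not called within the shared slide (0.99). UCHL1, an enzyme abundant in nerve cells, was higher in blood by 4.95 (log2, SE 0.23) and was detected on all 35 arrays.

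**Figure D3:**
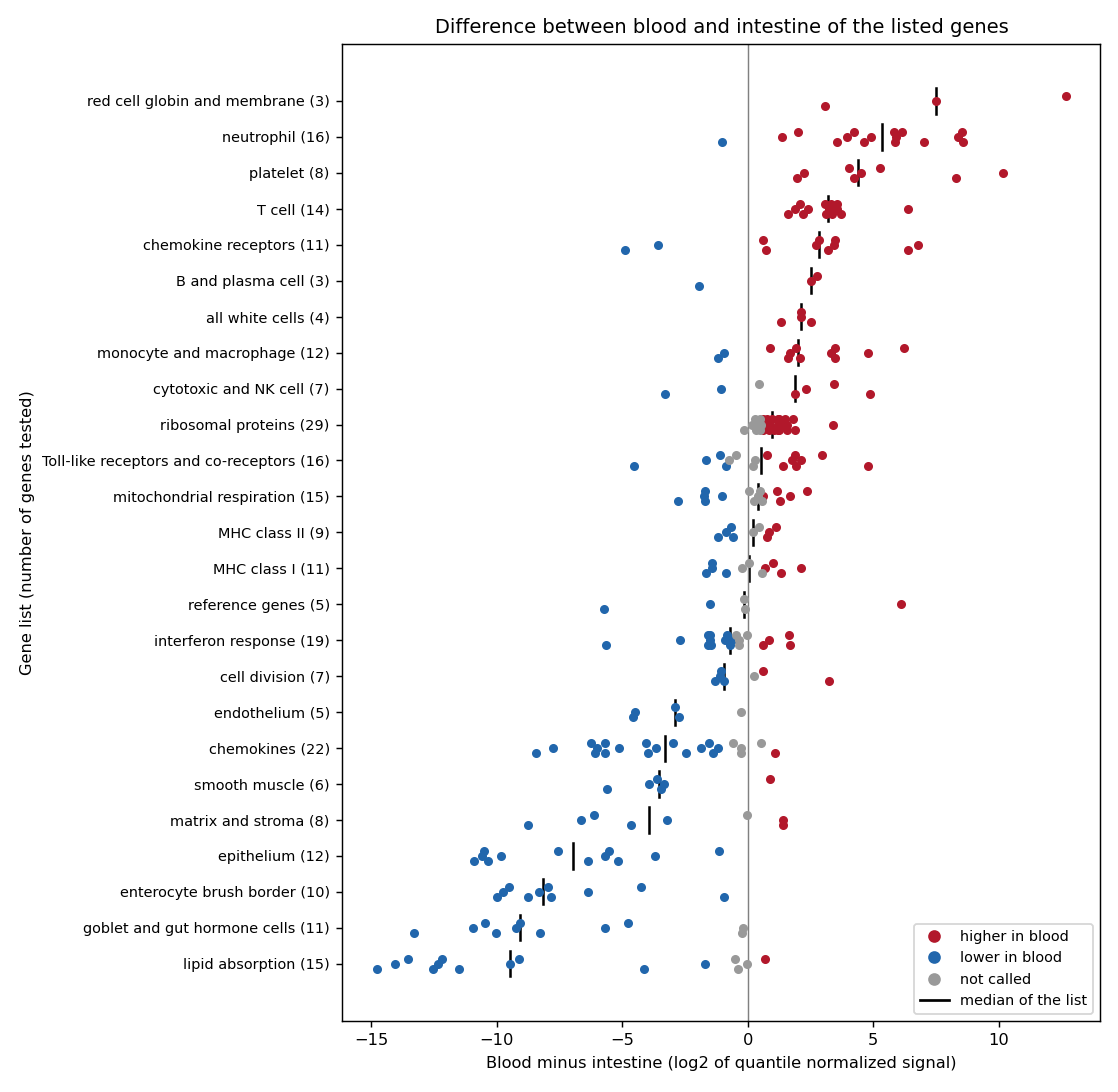
Difference of blood minus intestine (x axis, log2 of quantile normalized signal) of the tested genes of each list with at least 3 of them, ordered by the list's median, with the number tested in brackets. Points in red were called higher in blood, points in blue lower and grey points were not called, and the black lines give medians, from 7.49 for red cell genes to −9.49 for lipid absorption genes. After alignment on the 75th percentile the points near 0 shift to the right, and among the genes named in the text CYBA, B2M, PPIA, RPS28, SPINK4, PGK1, MLN and FABP6 change sign.

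Genes that every cell uses ranked high in both tissues. The mean rank of 29 ribosomal protein genes was 98.1 to 99.3 on blood arrays, 95.9 to 98.2 on jejunum arrays and 98.0 to 98.4 on ileum arrays. Of these genes 21 were higher in blood and 0 lower in the limma fit, and 29 were higher after alignment on the 75th percentile. When percentile ranks had to differ by 10 points, 0 passed. That rule could not show a rise in blood for a typical gene of this list. The mean ranks of the list in intestine already lay within 10 points of the top of the scale. RPS16 differed by 3.40 (log2, SE 0.08) and RPSA by 1.89 (log2, SE 0.08). Of 15 genes of mitochondrial respiration 5 were higher and 5 lower, from ATP5G1, an ATP synthase subunit, with −2.78 (log2, SE 0.09) to COX7A2, a cytochrome c oxidase subunit, with 2.34 (log2, SE 0.09), and 10 were higher and 5 lower after alignment on the 75th percentile. Of 7 cell division genes 2 were higher and 4 lower, among them BIRC5, survivin, with 3.26 (log2, SE 0.11), and AURKB, a mitotic kinase, with −1.31 (log2, SE 0.19).

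Genes often used as references did not all keep their level between blood and intestine. HPRT1, an enzyme of purine salvage, had ranks of 84.2 to 88.2 (median 86.4) in blood and 84.2 to 89.9 (median 86.6) in intestine, a log2 difference of −0.09 (SE 0.09), and PGK1, of glycolysis, differed by −0.14 (SE 0.12), by 0.24 after alignment on the 75th percentile, and by −1.26 within the shared slide, where it was called lower. GUSB, a lysosomal enzyme, had ranks of 83.8 to 89.2 (median 87.6) in blood and 98.8 to 99.4 (median 99.1) in intestine and differed by −5.70 (log2, SE 0.11). PPIA, a cyclophilin, was lower in blood by quantile normalized values (−1.49, log2, SE 0.07) and higher by 0.50 after alignment on the 75th percentile.

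Chemokines and their receptors were split between the tissues. Of the 22 chemokines in this list 17 were lower in blood and 1 higher (15 and 2 after alignment on the 75th percentile). Their median log2 difference was −3.31, and 10 were detected on no blood array. PPBP, the platelet chemokine named above, was counted with the platelet genes and not here, and was higher in blood by 10.15 (log2). CCL20, which attracts immature dendritic cells and lymphocytes to mucosa, had ranks of 0.556 to 53.8 (median 44.4) in blood and 84.1 to 98.8 (median 92.7) in intestine, and was at least 79.8-fold lower. CCL2, which attracts monocytes, was at least 19.4-fold lower, CCL21, a ligand of CCR7, at least 17.0-fold, and AMCF-II, a pig chemokine of neutrophils, at least 5.27-fold. CCL27, a chemokine of skin, was higher in blood by 1.11 (log2, SE 0.32), with detection on 1 of 12 blood arrays, and did not pass after another background correction or within the shared slide. Of 11 receptors 9 were higher in blood and 2 lower, with a median log2 difference of 2.84. CCR3, a receptor of eosinophils, had ranks of 89.3 to 93.6 (median 91.2) in blood and 38.2 to 54.6 (median 47.0) in intestine, and differed by 6.79 (log2, SE 0.17). The receptors higher in intestine were ACKR4, a scavenger of chemokines, with ranks of 45.7 to 70.9 (median 62.4) there, at least 2.21-fold, and CXCR6, found on lymphocytes of tissues, at least 1.38-fold. Within the slide shared with day 55 jejunum, 21 chemokines were lower, and 6 receptors were higher and 4 lower.

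Of 19 genes of the interferon response 11 were lower in blood and 4 higher, with a median log2 difference of −0.71. After alignment on the 75th percentile 10 were lower and 5 higher, with percentile ranks 4 were lower and 0 higher, and after normexp background correction 8 were lower and 3 higher. Within the slide shared with day 55 jejunum 14 were lower and 1 higher. OASL, an enzyme-like protein of the antiviral response, had ranks of 9.06 to 76.5 (median 44.0) in blood and 64.6 to 96.0 (median 87.3) in intestine, and differed by −5.66 (log2, SE 0.60). USP18, which removes ISG15 from proteins, differed by −2.71 (log2, SE 0.22). The other way went IFIT3, with 1.67 (SE 0.19), the RNA sensor IFIH1, with 1.64 (SE 0.15), and the transcription factor IRF7, with 0.85 (SE 0.21), all as log2 differences. Within the shared slide IFIT3 (0.25) and IRF7 (−0.42) were not called. T3 pool 1 had the highest mean rank of these genes in all 3 tissues, with 85.0 in blood, 89.8 in jejunum and 89.6 in ileum.

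Of 16 Toll-like receptor genes and co-receptors 8 were higher in blood and 4 lower (10 and 2 after alignment on the 75th percentile), with a median log2 difference of 0.53. Genes for sensing lipopolysaccharide lay on both sides. CD14, given above, LY96, the partner of TLR4, with 2.95 (log2, SE 0.13), and TLR4 itself, with 2.11 (log2, SE 0.15), were higher in blood, whereas LBP, which binds lipopolysaccharide in plasma, had ranks of 44.2 to 69.6 (median 62.7) in blood and 74.1 to 93.7 (median 90.5) in intestine, a log2 difference of −4.52 (SE 0.28). MHC genes present antigens. Of 9 class II genes 3 were higher and 4 lower, and of 11 class I genes 4 were higher and 4 lower, but after alignment on the 75th percentile 5 and 6 were higher and 1 in each list lower. B2M, the light chain of class I, differed by −1.65 (log2, SE 0.09) and by 0.88 with that alignment, and SLA-6 by 2.11 (log2, SE 0.18). Within the shared slide SLA-6 was not called (0.69), with 1 class I gene higher and 8 lower, and 0 class II genes higher and 4 lower. Genes of the SLA family are near-identical, so that single members are uncertain.

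**Figure D4:**
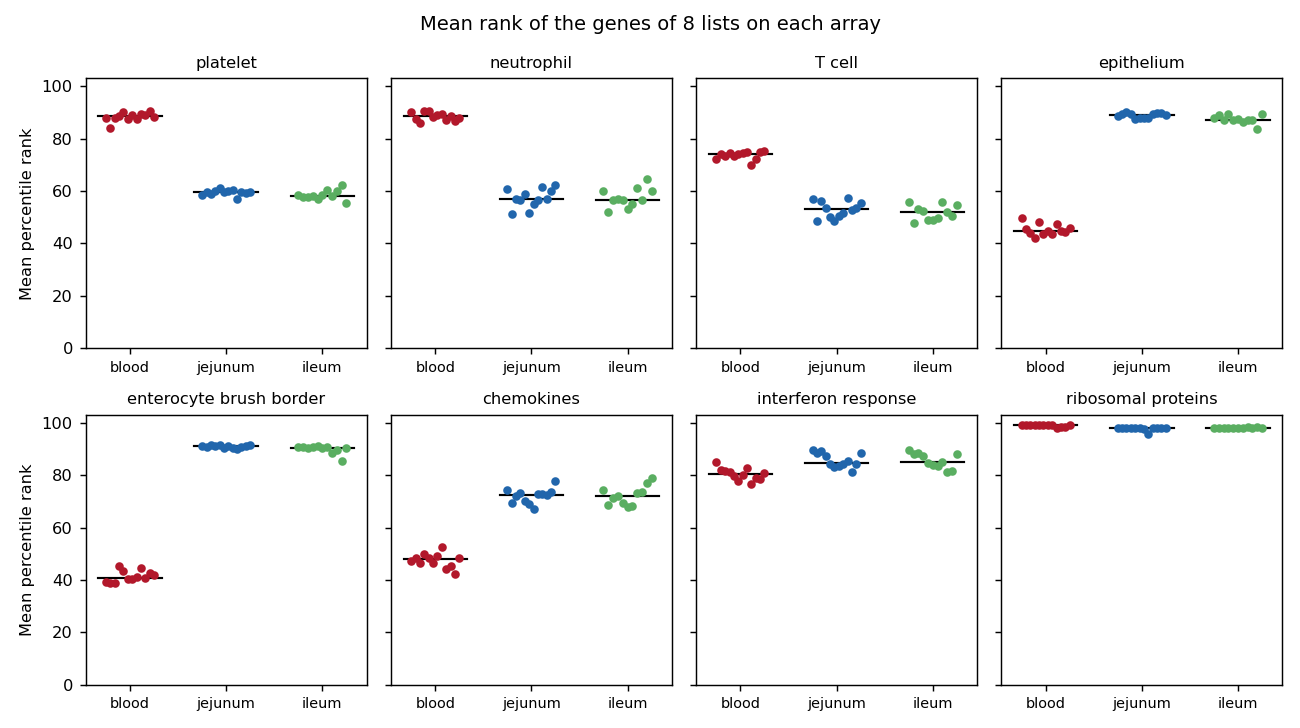
Mean percentile rank (y axis, 0 to 100) of the genes of 8 lists on each of the 12 blood, 12 jejunum and 11 ileum arrays, 1 point an array, with the median of the tissue as a line. Platelet, neutrophil and T cell genes lie higher on every blood array than on any intestine array, epithelial, brush border and chemokine genes lie lower, and the points of interferon response and of ribosomal protein genes overlap between blood and intestine.

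Far fewer genes were called between jejunum and ileum than between either and blood. In the fit of all 35 arrays 0 genes (0%) were higher in ileum and 5 (0.0159%) lower, none of them with a symbol, although 3965 genes had an unadjusted p below 0.05 in limma. When the 23 intestine arrays were fitted alone, where the spread of blood does not enter, 1016 genes were called, 261 higher and 755 lower in ileum. In the fit of all arrays, the 5 calls became 1682 after alignment on the 75th percentile and 493 without ileum T1 pool 12. The 5 genes had mean ranks of 25.6 to 38.8 in jejunum and 12.5 to 27.7 in ileum, in the dim part of the arrays.

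FABP6, the bile acid-binding protein that is known as a marker of ileum, did not separate the labelled parts of the gut but followed the pool of piglets. It was looked at more closely after its values were seen. Pool 9 had ranks of 98.6 in jejunum and 98.8 in ileum, pool 1 had 96.6 and 96.7, and pool 10 had 97.4 and 97.0. In contrast, pool 5 had 47.0 in jejunum and 45.4 in ileum, pool 7 had 49.6 and 47.3, and pool 12 had 54.8 and 50.5. Both parts of the gut were high or low together in these pools. Pools 9, 10 and 12 were T1, pools 5 and 7 T2 and pool 1 T3. Jejunum T2 pool 8, which had no ileum array, was low as well with 48.4. Each pool had 1 treatment, so differences between pools include those between treatments. Pools 3 and 4 were high in both, with 96.3 and 96.9 and with 96.7 and 96.8. Pool 2 lay between, with 69.1 and 71.1, and so did pool 6, with 84.9 and 75.6, and pool 11, with 87.7 and 93.7. Over the 11 pools with both arrays the jejunum and ileum ranks of FABP6 differed by a median of 1.59 points and at most 9.25, while the mean of a pool ran from 46.2 to 98.7. On the 4 day 55 jejunum arrays FABP6 had ranks of 98.2 to 99.9. It was also detected on all 12 blood arrays, with ranks of 66.7 to 92.3 (median 88.5), and blood minus intestine was −0.02 (log2, SE 1.00).

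Other genes that varied most between pools were described in the same way. Among 1822 genes with a symbol detected on all 23 intestine arrays, the 20 with the largest SD between pools had a median range over the 11 pools of 4.95 (log2), from 3.49 to 10.9. The median difference between jejunum and ileum of 1 pool was 0.0764 to 0.906 for these genes. Over all 1822 genes the medians were 0.918 for the range and 0.247 for the difference within a pool. The 20 were chosen by the SD of their mean over the 2 gut arrays of a pool, which favours genes with 2 similar arrays. A range over 11 pools also tends to exceed a difference within 1 pool, so these values are no test of sharing. The 20 included REG3G, an antibacterial lectin, SAA3, an acute phase protein, and CCL20, CCL19, CXCL2, CCR7, OASL and MX2 of the immune lists. SAA3 had a range over pools of 6.81 (log2) and a median difference within pools of 0.0764. CCL20 had 5.16 and 0.148, and OASL 6.003 and 0.212. With the mean of jejunum and of ileum removed, 7 of 11 ileum arrays were most like the jejunum array of their own pool among 12, over 18289 genes. What the 2 arrays of a pool share beside the piglets was not tested. Since these arrays are not independent, jejunum and ileum were also averaged per pool before the comparison with blood, which gave 23009 calls in place of 23903.

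**Figure D5:**
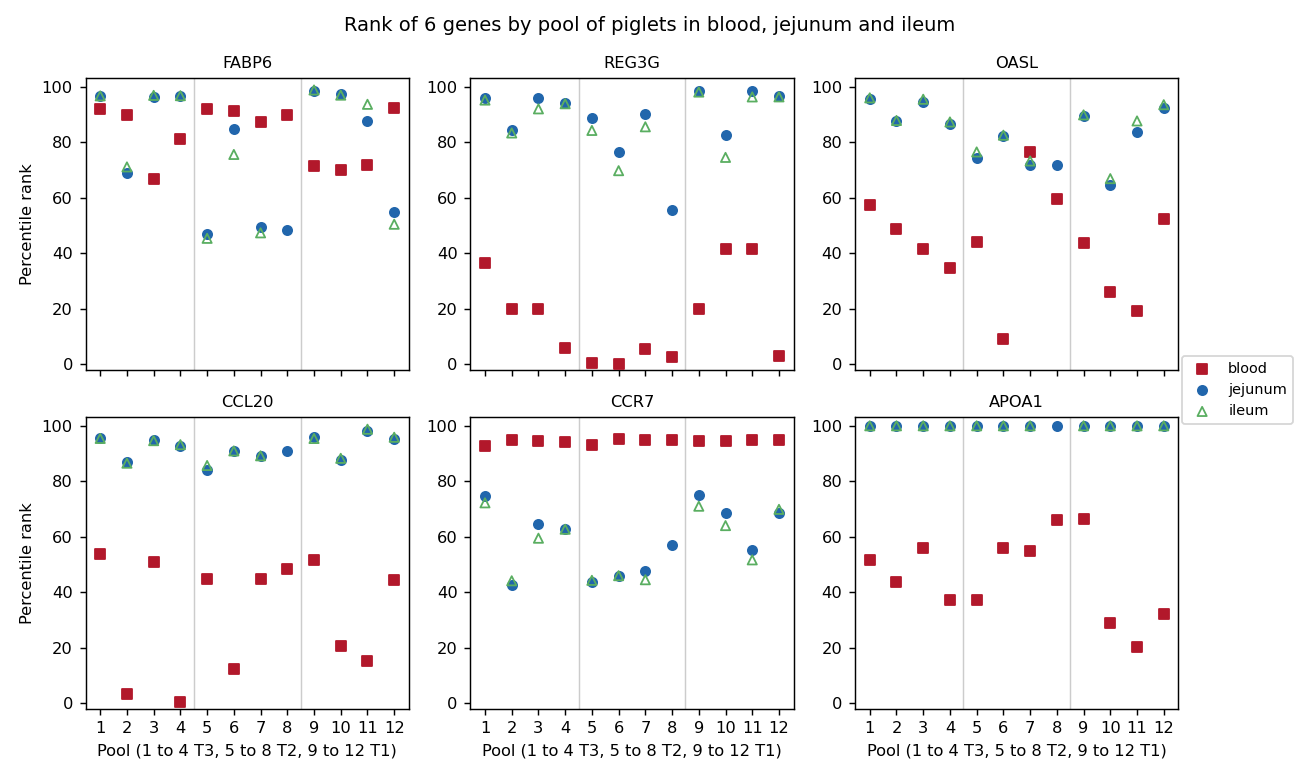
Percentile rank (y axis) of 6 genes by pool of piglets (x axis) in blood (squares), jejunum (circles) and ileum (triangles), with grey lines between T3, T2 and T1 pools and no ileum array for pool 8. FABP6, REG3G, OASL, CCL20 and CCR7 change from pool to pool with jejunum and ileum close together, and APOA1 stands at the top of all 23 intestine arrays.

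The treatments were compared only as a check. In the fit of all arrays, T2 and T1 blood differed in 3628 genes (11.5%), T3 and T1 blood in 1129 (3.59%), and T3 and T2 blood in 1694 (5.38%). The difference between blood and intestine itself differed between T2 and T1 in 1378 genes (4.38%), between T3 and T1 in 207 (0.657%) and between T3 and T2 in 271 (0.861%). These counts rest on 1 estimate of the spread for all tissues, whereas blood varied more than gut. Without blood T1 pool 12, 7789 genes differed in any contrast within blood, against 4834 with it, and 4654 for the difference between tissues, against 1605. With arrays weighted by the spread of their tissue, 244, 48 and 83 genes differed between treatments in blood, in the same order, and 170, 28 and 23 for the difference between tissues. When the 12 blood arrays were fitted alone, 2, 1 and 0 genes were called in limma, with 2830, 1896 and 1023 of 25483 genes at an unadjusted p below 0.05. With the set of sows as a block in that fit, 1 gene was called in any contrast. Blood of T1 lay on another slide than blood of T2 and T3, so that these contrasts with T1 and the slide cannot be told apart.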

How the data were processed

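RNA pools were hybridized by the authors to 1-colour Agilent pig arrays, and the files hold the intensity of each spot as deposited by the authors from the scanner software (Agilent Feature Extraction 10.7.3.1 per the file headers), background-subtracted and not yet normalized between arrays. Of 43603 probes, 5461 (12.5%) had a gene symbol, named through RefSeq (Sscrofa11.1). The authors' table of log2 values was not used, since each of its probes is centred on 0.

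Intensities below 1 were set to 1, taken to log2 and quantile normalized over the 35 arrays. Probes at or above the 20th percentile on every array of at least 1 of the 9 groups of tissue and treatment were kept, 198 with a missing value were left out, and the 37951 others were averaged to 31492 genes by symbol or name. Group means were compared in limma 3.58.1 (R 4.3.3) with Benjamini-Hochberg adjustment. Replicates are pools of 4 piglets, and the number of arrays limits the precision. Pool numbers mark the same piglets per the methods. Residuals of blood and intestine of 1 pool correlated at 0.0162 on average, those of jejunum and ileum at 0.195.

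Genes were named as follows: the 12 with the largest difference in each direction among called genes with a symbol and no overlap of arrays, the 6 of highest mean rank that differed by less than 1.5-fold, and of each list up to 4 members with the largest difference and those going against the list. REG3G, SAA3, FABP6, PAGE2B and the other genes followed by pool were chosen after their values were seen. Members and lists were chosen with earlier results of these data known. Alternatives were the scaling, percentile ranks, background correction (normexp on the median signals, since mean signals were not used here), the probe filter, pool and slide as blocks, array weights, averaging per pool and leaving out arrays. The fits were tested on simulated data with independent arrays and the same spread in all tissues. The larger spread in blood and the likeness of jejunum and ileum of a pool were therefore not covered. A few listed genes are not reported here.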

Additional observations from a re-analysis of the deposited data

Results flagged for a closer look

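Of 192 groups of 4 pools examined for a single sample far from the others, 12 held one, where chance alone gives about 1 in 20. Jejunum T2 pool 8 stood apart in 5 of them, with a mean rank of 82.8 for goblet and gut hormone cell genes, 95.9 for ribosomal protein genes, 94.5 for mitochondrial respiration genes, 62.4 for chemokine receptors and 80.4 for reference genes. A group here is 1 tissue and treatment. A flagged value can therefore lie within or near the range of the other groups of its tissue. Within blood T3, pool 4 stood apart with 45.2 for brush border genes, 61.1 for Toll-like receptor genes and 67.3 for chemokine receptors. Over all 12 blood arrays these lists ran from 38.8 to 45.2, from 57.6 to 65.3 and from 66.0 to 71.8. Pool 3 stood apart within blood T3 with 88.5 for MHC class I genes. Within blood T2, pool 6 stood apart with 46.0 for endothelial genes and pool 5 with 92.2 for reference genes. Jejunum T1 pool 12 had a 75th percentile of the signal of 917, far from the other 3 jejunum T1 arrays.

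The difference between blood and intestine itself differed between treatments in the limma fit of all arrays, in 1378 genes for T2 against T1, in 207 for T3 against T1 and in 271 for T3 against T2. With arrays weighted by the spread of their tissue these counts were 170, 28 and 23.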

How the results depend on the processing

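The 23903 calls between blood and intestine stayed within 1.5-fold of that number under all alternatives run except normexp background correction, which gave 14609 calls, 14625 against jejunum, 14591 against ileum and 4289 above 4-fold. With percentile ranks 5537 passed the stricter rule. Calls between ileum and jejunum, 5 as reported, were 1682 after alignment on the 75th percentile, 12 with ranks, 11 with normexp, 31 with probes well above background, 965 with array weights, 1016 with gut fitted alone, 8 without jejunum T2 pool 8 and 0 with slide as a random block. With the pool as a block, they numbered 2, and those between blood and intestine 23904, and the block moved no other count by over 1.5-fold. It could not be fitted for treatments in blood. There, 4834 genes differed in any contrast, but 344 after alignment on the 75th percentile, 2561 with normexp, 2205 with probes well above background, 318 with array weights, 2 with blood fitted alone and 1 with the set of sows as a block. For the difference between tissues, 1605 genes became 239 with that alignment, 886 with probes well above background and 198 with weights. Detection in blood and not in intestine, 29 names, became 73 with a relaxed number of arrays, 2 with the positive and significant flag and 1196 among the brightest 33.3%, and the reverse, 4259, became 7452, 1052 and 1114. After alignment on the 75th percentile log2 differences changed sign for the genes RPS28 (3.44), SPINK4 (2.87), CYBA (0.25), B2M (0.88) and PPIA (0.50), and for PGK1 (0.24), MLN (0.47) and FABP6 (0.17), which were called in neither. Leaving out 1 array gave 23791 to 24772 calls between blood and intestine, 2 to 493 between ileum and jejunum (493 without ileum T1 pool 12), 3795 to 7789 between treatments and 978 to 4654 for the difference between tissues (both highest without blood T1 pool 12). The planned slide block with treatment in the design could not be fitted, as each group lay on 1 slide, so tissue means were used, an alternative added after seeing the data, like array weights and the fits of blood or gut alone. The cause of these shifts was not tested. Blood signals near background limit what can be said of dim genes.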
